A study of Mus musculus with 52 samples.

Results

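The genes described here encode 9 neuropeptide precursors: Tac1, Tac2, Penk, Pdyn, Nts, Cck, Vip, Gal and Adcyap1. They were found by symbol among the 46071 gene rows of a count table of mouse brain RNA, and each of the 9 symbols matched a single Ensembl identifier. The animals were male C57BL/6J mice, an inbred laboratory strain, aged 3 months and fitted with a jugular vein catheter. While awake they were infused for 3 h with saline (the basal group), with insulin at 4 mU/kg/min (the low rate) or with insulin at 12 mU/kg/min (the high rate), and glucose was infused to adjust their blood glucose. RNA was taken from the hypothalamus (5 basal, 6 low and 5 high libraries), the hippocampus (6 of each) and the nucleus accumbens (6 of each), giving 52 libraries. The labels tie no library to an animal and do not say whether the regions came from the same mice, so the p-values measure spread among libraries, part of which may be technical.

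Neuropeptides are cut from larger precursor proteins by prohormone convertases, stored in dense-core vesicles and released to act on G protein-coupled receptors. Tac1 encodes substance P and neurokinin A, Tac2 encodes neurokinin B, Penk encodes the enkephalins and Pdyn the dynorphins. Nts, Cck, Vip, Gal and Adcyap1 encode neurotensin, cholecystokinin, vasoactive intestinal peptide, galanin and PACAP. In the striatum, of which the nucleus accumbens is the ventral part, Penk marks the projection neurons that carry the dopamine receptor Drd2, and Tac1 and Pdyn mark those that carry Drd1. Each precursor is made by particular neurons, so its level in bulk tissue follows both the number of those neurons in the sample and the RNA in each, which cannot be told apart here.

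Total counts per library ranged from 2453412 to 8279612. Levels are given as CPM, the usual depth-scaled count, with library sizes adjusted by TMM (trimmed mean of M values). The summed level of 12 hypothalamic neuron genes was 82.1 to 1804 CPM in the hypothalamus and at most 90.6 CPM elsewhere, and the summed level of 9 striatal projection neuron genes was 1469 to 3853 CPM in the nucleus accumbens and at most 676.9 elsewhere. The summed level of 7 hippocampal field genes was 447.4 to 1124 CPM in the hippocampus and at most 267.2 elsewhere. Some libraries stood apart. In 5 hypothalamic libraries (low 1, 2 and 6, high 3 and 5) at least 1 of 5 hypothalamic peptide genes (Pomc, Hcrt, Oxt, Pmch, Avp) was under 1 CPM, in 4 hippocampal libraries (basal 6, low 1, 2 and 5) the summed level of 4 medial habenula genes was above 20 CPM, and in 3 accumbens libraries (basal 3, low 4, high 5) that of 6 pyramidal neuron genes was above 500 CPM. The 5 hypothalamic libraries were not alike. Low 1, 2 and 6 and high 5 were under 1 CPM for Avp and Oxt, and low 2 also for Pomc. High 3 was under 1 CPM for Hcrt and Pomc but held 44.7 CPM of Avp and 70.9 of Oxt. The habenula and pyramidal sets are called habenula-rich and cortex-rich here, which are names for these cuts that no label gives. The members' values in the libraries that stood apart are given beside the results they touch.

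Penk, the enkephalin precursor (ENSMUSG00000045573, GRCm38 chr4:4133531-4138819, minus strand), had the highest level of the 9 in the nucleus accumbens. Its mean there was 838.6 ± 203.1 CPM (SD, n = 18), against 115.5 ± 41.1 (SD, n = 16) in the hypothalamus and 32.8 ± 13.7 (SD, n = 18) in the hippocampus. Its accumbens libraries ran from 511.3 to 1201 CPM with a median of 845.8, and the highest library of any other region held 214.6. No accumbens library overlapped another region, while the hypothalamus (67.3 to 214.6 CPM) and the hippocampus (18.7 to 78.1) overlapped at their ends. An annotated antisense gene, A830012C17Rik, overlaps Penk, but it held 36 counts in all 52 libraries against 84235 for Penk.

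Tac1, the precursor of substance P (ENSMUSG00000061762, chr6:7554879-7565834, plus strand), and Pdyn, the precursor of the dynorphins (ENSMUSG00000027400, chr2:129686565-129699844, minus strand), followed the same order of regions. Tac1 averaged 186.5 ± 79.6 CPM in the nucleus accumbens, 82.9 ± 25.6 in the hypothalamus and 7.11 ± 3.47 in the hippocampus (SD, n = 18, 16 and 18). Pdyn averaged 131.3 ± 38.8, 48.1 ± 21.9 and 13.4 ± 2.24 CPM in the same order. Every hippocampal Tac1 library, at 15.2 CPM or less, lay below every library of the other regions, and the accumbens and hypothalamic ranges overlapped. For Pdyn every accumbens library, at 84.5 CPM or more, lay above all others, and of the hypothalamic libraries low replicate 6, at 13.9 CPM, lay within the hippocampal range and low replicate 2, at 3.75 CPM, below it. Hippocampal Pdyn spanned 10.2 to 17.2 CPM, the smallest coefficient of variation of any member in any region (16.7%). In the hypothalamus it was less even, with libraries from 3.75 to 80.7 CPM.

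Tac2, the neurokinin B precursor (ENSMUSG00000025400, chr10:127724478-127731768, plus strand), averaged 21.5 ± 8.64 CPM in the hypothalamus, 19.1 ± 10.9 in the accumbens and 6.73 ± 9.12 in the hippocampus. The hippocampal SD exceeded the mean because 4 of its 18 libraries held 18.8 to 29.7 CPM and the other 14 held 0.581 to 4.31. Nts, the neurotensin precursor (ENSMUSG00000019890, chr10:102481756-102490486, minus strand), averaged 45.2 ± 13.0 CPM in the nucleus accumbens, 20.6 ± 9.79 in the hypothalamus and 4.24 ± 3.53 in the hippocampus. Accumbens Nts lay between 15.2 and 69.9 CPM, above the highest hippocampal library at 13.0 CPM.

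Cck and Vip were highest in the hippocampus. Cck, which encodes cholecystokinin (ENSMUSG00000032532, chr9:121489824-121495694, minus strand) and is made by interneurons and pyramidal cells of the cortex and hippocampus, averaged 182.2 ± 76.8 CPM there, against 23.8 ± 31.5 in the nucleus accumbens and 13.9 ± 12.9 in the hypothalamus. Vip (ENSMUSG00000019772, chr10:5639218-5647617, plus strand), which encodes a peptide of cortical interneurons and of the suprachiasmatic nucleus, averaged 14.8 ± 4.26 CPM in the hippocampus, 7.11 ± 7.52 in the accumbens and 3.23 ± 4.46 in the hypothalamus. Hippocampal levels of both genes varied less across libraries, within 102.4 to 360.5 CPM for Cck and 8.31 to 24.3 for Vip. In the other regions a few libraries carried much of the total, and the median was far below the mean: 9.35 CPM for accumbens Cck and 1.61 CPM for hypothalamic Vip.

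Gal, the galanin precursor (ENSMUSG00000024907, chr19:3409915-3414544, minus strand), and Adcyap1, the PACAP precursor (ENSMUSG00000024256, chr17:93199017-93206537, plus strand), were highest in the hypothalamus. Gal averaged 14.3 ± 7.82 CPM there and 5.12 ± 4.31 in the nucleus accumbens. In the hippocampus it had 12 counts in all 18 libraries and none in 10 of them; a library without a count allows up to 3 counts, which is 0.507 to 0.99 CPM at these depths, and that limit covers counting error only. Adcyap1 averaged 56.6 ± 19.9 CPM in the hypothalamus, 8.71 ± 4.46 in the accumbens and 3.44 ± 2.47 in the hippocampus. Its lowest hypothalamic library, at 28.1 CPM, was above its highest accumbens library, at 16.6 CPM.

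**Figure D1:**
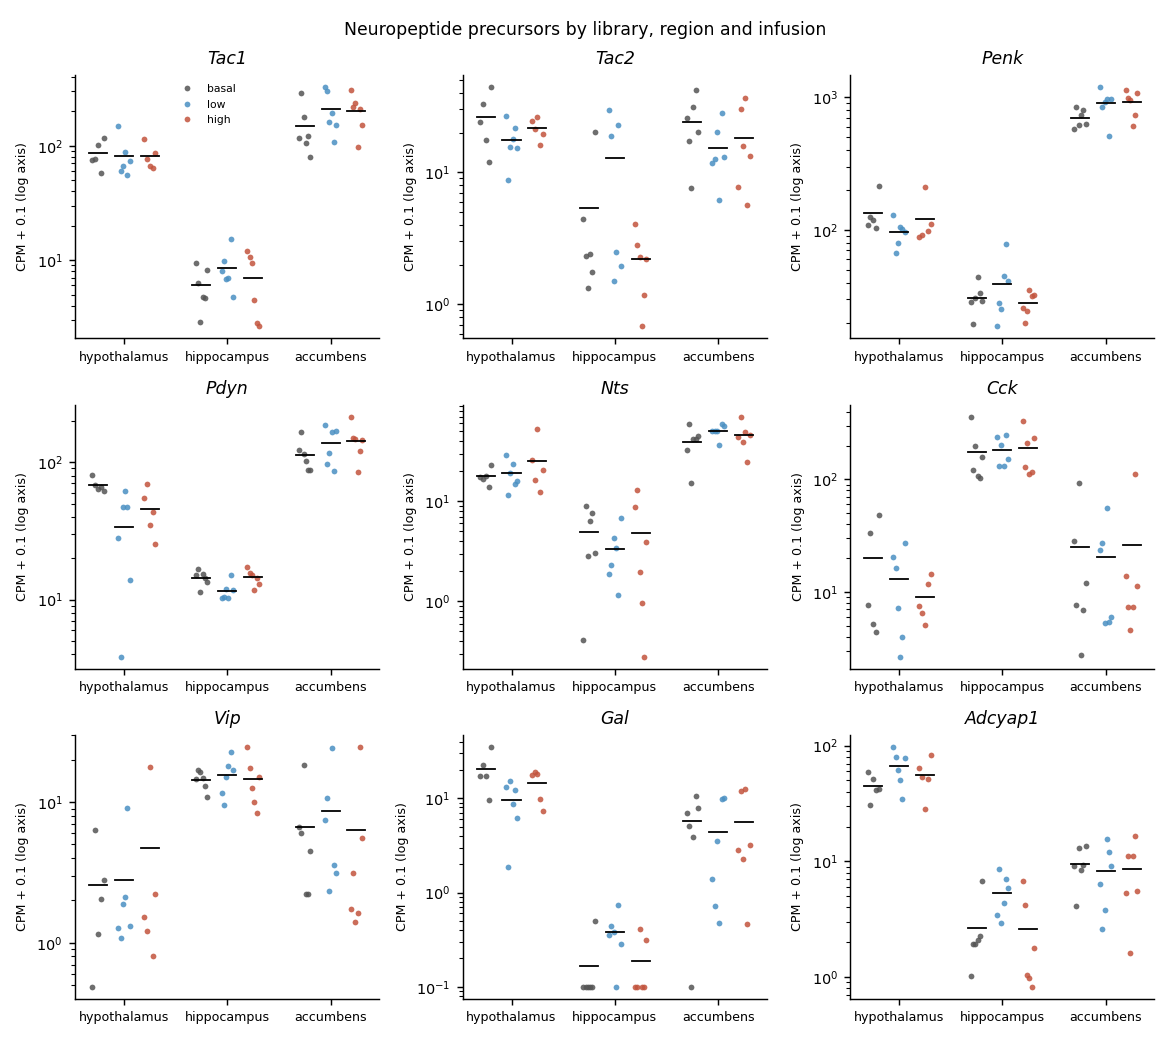
Level of each precursor in every library, as CPM plus 0.1 on a log axis, by region, with the basal (grey), low (blue) and high (red) insulin groups side by side; black bars are group means. Penk, Tac1, Pdyn and Nts were highest in the nucleus accumbens, Cck and Vip in the hippocampus, and Gal and Adcyap1 in the hypothalamus.

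Levels of different genes can be compared only per length of transcript, so CPM was also divided by the length of each gene's merged exons in kb. Penk led in the hypothalamus at 70.7 ± 25.2 CPM per kb and in the nucleus accumbens at 513.2 ± 124.3, and Cck led in the hippocampus at 139.6 ± 58.9. In the hypothalamus Tac1 (24.4 CPM per kb), Gal (18.2), Pdyn (16.7), Nts (16.5), Tac2 (15.6), Adcyap1 (15) and Cck (10.6) followed, each within an SD of the next, with Vip last at 0.948. In the hippocampus Penk came next at 20.1 CPM per kb, then Tac2, Pdyn, Vip and Nts between 3.4 and 4.89 and Tac1 at 2.09, with no gap among these 5 beyond their spread, then Adcyap1 (0.911) and Gal (0.184), each below its neighbour by more than the larger SD. In the nucleus accumbens Tac1 (54.9 CPM per kb), Pdyn (45.5) and Nts (36.2) followed Penk, and the lowest levels were those of Adcyap1 (2.31) and Vip (2.09). Apart from the lead of Penk in that region, no gap between neighbours exceeded the larger of their SDs.

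The regions were compared by test only in saline-infused libraries, fitted together with edgeR's quasi-likelihood test and Benjamini-Hochberg adjustment over 14093 genes. All 9 precursors differed between hypothalamus and hippocampus. Of these, 7 were higher in the hypothalamus (22.9% of all genes tested were) and 2, Cck and Vip, were lower (21.1% of all genes), where 44.1% of genes were called in either direction. The basal libraries of the 2 regions did not overlap for 8 of the 9 (25.4% of all genes), Tac2 being the exception. Adcyap1 was higher in the hypothalamus by 4.04 log2 units (SE 0.35, adjusted p = 1.23e-08), with 30.6 to 59.6 CPM against 0.924 to 6.72. Tac1 was higher by 3.84 (SE 0.33, adjusted p = 1.12e-08), with 57.3 to 117.9 CPM against 2.76 to 9.24. Pdyn, Penk and Nts were higher by 2.25, 2.14 and 1.84 log2 units, with adjusted p at or below 0.000632. Cck was lower by 3.10 log2 units (log2 fold change -3.10, SE 0.81, adjusted p = 0.00494) and Vip by 2.44 (-2.44, SE 0.53, adjusted p = 0.000862).

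Gal had 564 counts in the 5 basal hypothalamic libraries and 2 counts in the 6 basal hippocampal libraries, both in replicate 6. The ratio of summed counts per library size was 256, with a 95% exact interval from 70.6 to 2120 that covers counting error only. Tac2 was higher in the hypothalamus by 2.23 log2 units (SE 0.57, adjusted p = 0.00365). Basal hippocampal Tac2 was 1.23 to 4.31 CPM in 5 libraries and 20.2 in replicate 6, which is habenula-rich, and without the habenula-rich and cortex-rich libraries the difference was 3.49 (adjusted p = 1.27e-06). Without the libraries that lean to GC-rich transcripts, which include 3 of the 5 basal hypothalamic libraries, it was 1.34 and no longer called (adjusted p = 0.301).

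Between nucleus accumbens and hippocampus 8 of the 9 precursors differed, where 27.9% of all genes did. The accumbens was higher for 7 (14.2% of all genes) and lower for Cck (13.7% of all genes). For 5 genes, Tac1, Penk, Pdyn, Nts and Cck, the basal libraries did not overlap (17.1% of all genes). Tac1 and Penk had nearly equal differences, 4.63 (SE 0.33, adjusted p = 1.15e-09) and 4.52 (SE 0.21, adjusted p = 3.37e-12) log2 units. Basal Penk was 571 to 846 CPM in the accumbens, median 681.6, and 19.5 to 44.2 CPM in the hippocampus, median 29.6. Nts, Pdyn, Tac2 and Adcyap1 were higher by 3.00, 2.98, 2.10 and 1.78 log2 units. Gal had 191 counts in the basal accumbens against the same 2 counts, a ratio of 75.9 with an exact 95% interval from 20.7 to 631. Vip did not pass the test (-1.20, SE 0.46, adjusted p = 0.0581), but did in 8 of 26 alternatives. Among these were limma-voom (-1.65, adjusted p = 0.00352) and the mean of the 3 infusions over all 52 libraries (-1.09, adjusted p = 0.0108). Another was the fit without basal accumbens replicate 3, a cortex-rich library with 18.2 CPM of Vip (-1.78, adjusted p = 0.00196).

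Between nucleus accumbens and hypothalamus 6 of the 9 differed, where 29% of all genes did. Penk was higher in the accumbens by 2.38 log2 units (SE 0.21, adjusted p = 4.03e-08), Nts by 1.16 (SE 0.35, adjusted p = 0.0181), Tac1 by 0.79 (SE 0.28, adjusted p = 0.0419) and Pdyn by 0.73 (SE 0.15, adjusted p = 0.00137), so 4 were higher (13.9% of all genes). Adcyap1 (-2.26, SE 0.30, adjusted p = 1.55e-05) and Gal (-1.81, SE 0.42, adjusted p = 0.00342) were lower, 2 in all (15.1% of all genes). Only Penk, Pdyn and Adcyap1 had basal libraries that did not overlap between these regions (14.7% of all genes). The Tac1 call was lost in 11 alternatives, among them the fits without basal hypothalamic replicate 1 (adjusted p = 0.0786), 2 (0.0976) or 4 (0.0783) and without basal accumbens replicate 2 (0.147) or 3 (0.0762). Nts was lost in 4, among them the fit without basal accumbens replicate 2 (adjusted p = 0.0506), and Pdyn in the fit of all 52 libraries (adjusted p = 0.0549). Tac2 (-0.13, 95% interval -1.21 to 0.95), Cck (0.23, 95% interval -1.42 to 1.88) and Vip (1.23, adjusted p = 0.0945) did not pass. Vip did pass in 3 of 26 alternatives, among them DESeq2 (1.36, adjusted p = 0.0336) and the fit without basal hypothalamic replicate 2 (2.08, adjusted p = 0.0168). Without the GC-leaning libraries 3 precursors were called, Penk, Pdyn and Adcyap1.

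**Figure D2:**
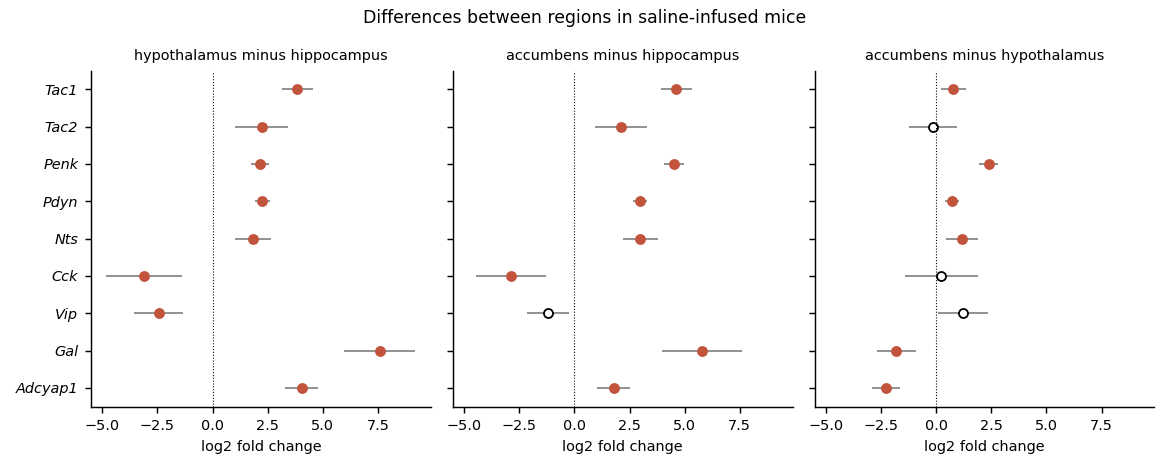
Log2 fold change of each precursor between pairs of regions in saline-infused libraries, with 95% intervals; filled points passed an adjusted p of 0.05 and open points did not. All 9 points are filled for hypothalamus minus hippocampus, 8 for accumbens minus hippocampus and 6 for accumbens minus hypothalamus.

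The DNA before the start sites of these genes was searched for the 5-base core of the cyclic AMP response element, the sequence bound by the transcription factor CREB and known from several neuropeptide genes. RefSeq (GRCm38.p6) gave the 250 bases before the start for 8 of the 9 members. The core, TGACG or CGTCA on the other strand, was present in 5 of these 8 and in 17.8% of 32851 promoters. The whole element, TGACGTCA, was in 1.55% of promoters and in none of the 8. The matches are shown with 18 bases to each side, 5′ to 3′ on the strand of the gene, with the core in capitals. They span the members of all 3 regional patterns, Tac1 and Nts of the accumbens, Cck and Vip of the hippocampus and Adcyap1 of the hypothalamus.
Tac1 (chr6:7554846-7554886, plus strand): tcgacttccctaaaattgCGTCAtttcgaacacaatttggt
Nts (chr10:102490562-102490602, minus strand): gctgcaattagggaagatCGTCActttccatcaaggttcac
Cck (chr9:121495719-121495759, minus strand): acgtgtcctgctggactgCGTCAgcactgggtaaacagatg
Vip (chr10:5639121-5639161, plus strand): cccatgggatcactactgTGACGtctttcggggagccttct
Adcyap1 (chr17:93198908-93198948, plus strand): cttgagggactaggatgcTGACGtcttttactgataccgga
The core began 197 bases before the listed start in Tac1, where a further match lay closer to the start, 166 in Nts, 47 in Cck, 79 in Vip and 91 in Adcyap1. These starts are those of RefSeq and can differ from the gene coordinates given above. For Tac1 the latter begin at base 7554879, inside the printed stretch, and the further match lay within them. Tac2, Pdyn and Gal held no match in this window. A match is a description of letters, and none of the measurements here bear on binding at these positions.

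Insulin was compared with saline within each region, with all 3 infusions of a region in a single edgeR quasi-likelihood fit. None of the 9 precursors was called at an adjusted p of 0.05 in any of the 9 comparisons of infusions. The background differed by region: in the hypothalamus 5.38% of 14139 genes were called at the low rate against basal, 0.184% at the high rate against basal and 0% between the rates, while in the hippocampus and the nucleus accumbens 0% of genes were called in every comparison. At an unadjusted p under 0.05 the members counted were 3 of 9 at the low rate in the hypothalamus (29.9% of all genes), 0 of 9 at the high rate (24.1%) and 0 of 9 between the rates (1.41%). In the hippocampus they were 1 of 8 at the low rate (6.05%), 0 of 8 at the high rate (2.61%) and 3 of 8 between the rates (2.84%), Gal being too low to test. In the nucleus accumbens they were 0 of 9 at the low rate (1.42%), 1 of 9 at the high rate (2.37%) and 0 of 9 between the rates (2.12%). DESeq2 called 1 member, Gal in the hypothalamus at the low rate, while limma-voom called none. The 3 comparisons of a region share libraries.

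**Figure D3:**
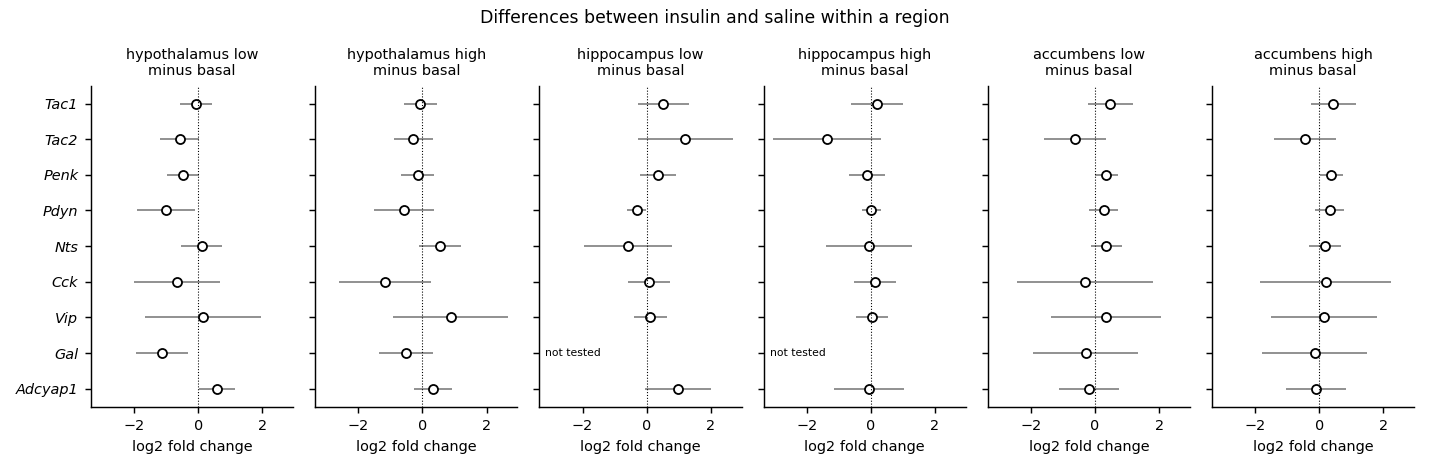
Log2 fold change of each precursor between insulin and saline within a region, with 95% intervals; open points did not pass an adjusted p of 0.05, and no point passed. The basal libraries of a region are shared by its 2 panels.

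Hypothalamic Pdyn and Gal had the lowest fold changes of the 9 at the low rate. Pdyn was 80.7, 68.7, 63.6, 66 and 61.7 CPM in the basal libraries, 28, 3.75, 46.8, 61.6, 46.9 and 13.9 in the low libraries, and 54.7, 69.8, 34.6, 43 and 25.5 in the high libraries. All 6 low libraries were below every basal library (1.05% of all genes did this downward), though the highest low library and the lowest basal library were 61.59 and 61.68 CPM. The log2 fold change at the low rate was -1.0 (SE 0.43, 95% interval -1.90 to -0.11, adjusted p = 0.131), and at the high rate it was -0.57 (SE 0.44, adjusted p = 0.414). The Pdyn values followed the libraries that lack a hypothalamic peptide gene: those 5 held 3.75 to 34.6 CPM and the other 11 held 43.0 to 80.7. The highest of the 5, at 34.6 CPM, was high replicate 3, which unlike the rest of the 5 kept Avp and Oxt. The same 5 had a summed hypothalamic neuron level of 82.1 to 348.6 CPM against 765.6 to 1804 in the others, a sum that includes the 5 peptide genes by which they were set apart and so partly restates that choice. None of them was basal. Without them the fold change of Pdyn at the low rate was -0.39 (adjusted p = 0.16). When all 52 libraries entered 1 fit it was -1.01 and passed (adjusted p = 0.0439).

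Gal was 17.2, 22.3, 17.3, 9.43 and 35 CPM in the basal libraries, 13, 1.78, 15.1, 8.66, 12 and 6.03 in the low libraries, and 17.5, 19.1, 18, 9.65 and 7.22 in the high libraries. The groups overlapped through basal replicate 4, the lowest of its group. The log2 fold change at the low rate was -1.13 (SE 0.39, 95% interval -1.94 to -0.31, adjusted p = 0.0789), and without basal replicate 4 it was -1.29 and passed (adjusted p = 0.0291), as it did in DESeq2 (-1.11, adjusted p = 0.0443). At the high rate it was -0.51 (adjusted p = 0.414). Without the GC-leaning libraries, which were basal replicates 1, 2 and 5 and no insulin library, the low-rate value was -0.57 (adjusted p = 0.873). The part of that lean, and of the low peptide mRNA in the 5 libraries, in the Pdyn and Gal values was not tested.

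Adcyap1 had a fold change of the opposite sign in the hypothalamus. It was 59.6, 30.6, 50.9, 41.2 and 42.1 CPM in the basal libraries and 97.5, 79.3, 62.1, 50.1, 34.7 and 78 in the low libraries, and the high libraries held 28.1 to 82.8. The ranges overlapped, and the log2 fold change at the low rate was 0.59 (SE 0.27, adjusted p = 0.147). The 3 highest low libraries were replicates 1, 2 and 6, which lack a peptide gene, and without the libraries of that kind the value was 0.12 (adjusted p = 0.727). Tac2 (-0.58, adjusted p = 0.175) and Penk (-0.46, adjusted p = 0.194) did not pass at the low rate, and Tac2 passed without basal replicate 4 (-0.75, adjusted p = 0.0476). That was the only 1 of 27 alternatives in which Tac2 passed, and over them its value ran from -0.76 to 0.22. Nts and Tac1 had fold changes of 0.11 and -0.06. The median over the 9 was -0.46 at the low rate and -0.15 at the high rate, beside -0.02 and -0.03 over all genes tested, with 6 of the 9 below 0 at each rate.

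Vip and Cck were uneven in the hypothalamus within every infusion. Vip was 17.7 CPM in high replicate 3, 9.01 in low replicate 5 and 6.25 in basal replicate 2, and at most 2.71 CPM in the other 13 libraries. Of 5 genes listed for the suprachiasmatic nucleus, a hypothalamic nucleus whose neurons make this peptide, Prok2 was highest in the same 3 libraries, at 7.39, 2.7 and 2.52 CPM in that order against at most 1.28 elsewhere, while Six6 and Lhx1 were within the range of the other libraries there. The remaining genes of that list were mixed: Nms was 2.73, 1.05 and 1.46 CPM and Rgs16 20.1, 18.3 and 41.2 in the 3 libraries in the same order, against at most 1.41 and 30.0 elsewhere. High replicate 3 also had the highest Nts of the hypothalamus, 52.4 CPM against at most 29.2, and an interneuron sum of 2168 CPM against at most 1363. Cck was 48.6 and 33.6 CPM in basal replicates 5 and 2 and 2.57 to 27.3 in the other 14 libraries. The fold changes of Vip were 0.16 at the low rate and 0.88 at the high rate, and those of Cck -0.66 and -1.16, with adjusted p of 0.281 or more. These directions rested on a few libraries. Vip at the high rate was -0.94 without high replicate 3 and 1.69 without basal replicate 2, and at the low rate it was -0.81 without low replicate 5 and 0.97 without basal replicate 2. Cck at the low rate was -0.05 without basal replicate 5, 1.40 without the GC-leaning libraries and -2.23 without the libraries lacking a peptide gene. At the high rate Cck was -0.56 without basal replicate 5 and 0.90 without the GC-leaning libraries.

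In the hippocampus the widest contrast was that of Tac2, and it followed the habenula-rich libraries. Tac2 was 4.31, 2.2, 1.23, 2.31, 1.67 and 20.2 CPM in the basal libraries, 29.7, 18.8, 1.41, 2.38, 22.6 and 1.85 in the low libraries and 0.581 to 3.94 in the high libraries. The 4 libraries at 18.8 CPM or more were the 4 in which the medial habenula genes Gpr151, Chrnb4, Chrna3 and Pou4f1 summed to 29.8 to 85.4 CPM, against 2.39 to 6.67 in the other 14. The medial habenula lies beside the hippocampus, and its neurons are known to make tachykinins. High minus low was -2.57 on the log2 scale (SE 0.79, adjusted p = 1 in edgeR's quasi-likelihood test), and without the habenula-rich libraries it was 0.17 (adjusted p = 1). Low minus basal went from 1.20 to -0.29 in the same way, and high minus basal from -1.36 to -0.12. This set of libraries was left out after the data were seen, and the part of habenula tissue in the Tac2 values was not tested.

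Pdyn was the member with the smallest spread in the hippocampus, and its low group had the lowest median. The basal libraries ran from 11.3 to 16.7 CPM with a median of 14.7, the low libraries from 10.2 to 15.0 with a median of 11, and the high libraries from 11.6 to 17.2 with a median of 14.6. Low minus basal was -0.31 (SE 0.15, adjusted p = 0.811) and high minus low was 0.32 (SE 0.14, adjusted p = 1), so neither passed and the groups overlapped. Adcyap1 had medians of 1.91, 5.02 and 1.31 CPM in the basal, low and high libraries, with high minus low at -1.05 (adjusted p = 1). It was 3.32 to 8.46 CPM in the 4 habenula-rich libraries and 0.722 to 6.62 in the others, and without the former high minus low was -0.76 (adjusted p = 1). Cck, the highest hippocampal precursor, had medians of 139.6, 177.1 and 170.1 CPM, and its fold changes were 0.07 at the low rate (95% interval -0.58 to 0.72) and 0.12 at the high rate (95% interval -0.54 to 0.77). Vip, Penk, Tac1 and Nts did not pass either, with fold changes between -0.59 and 0.52 against basal.

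The hippocampal groups also differed in markers of other cell types. The summed level of 6 choroid plexus genes was 66.5 to 1455 CPM (median 136.1) in the basal, 91.9 to 6281 (median 2390) in the low and 61.2 to 2854 (median 618) in the high libraries. That of 5 oligodendrocyte genes was 2645 to 4856, 5577 to 17520 and 5252 to 7284 CPM, so the basal libraries lay below all the others, and all 5 genes had an unadjusted p under 0.05 for low minus basal (6.05% of all genes), with a median log2 fold change of 0.99 and none called. The 7 hippocampal field genes summed to medians of 1052, 865.3 and 1053 CPM. Low replicate 5 had the highest oligodendrocyte sum and the lowest hippocampal field sum, 447.4 CPM. The part of these differences in the hippocampal precursor values was not tested.

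In the nucleus accumbens Penk had the smallest p of the members. Its basal libraries ran from 571 to 846 CPM with a median of 681.6, its low libraries from 511.3 to 1201 with a median of 938.6, and its high libraries from 603.2 to 1139 with a median of 968.7. High minus basal was 0.38 (SE 0.17, 95% interval 0.02 to 0.73, adjusted p = 1), and low minus basal was 0.35 (SE 0.17, adjusted p = 1). The groups overlapped at both rates. Pdyn (0.27 at the low rate and 0.33 at the high rate), Tac1 (0.47 and 0.44), Nts (0.36 and 0.18) and Vip (0.33 and 0.15, SE 0.81 and 0.79) were also above 0 at both rates, Cck was -0.31 and 0.20 (SE 1.00 and 0.96), and Tac2 (-0.63 and -0.44), Gal (-0.30 and -0.14) and Adcyap1 (-0.20 and -0.11) were below 0 at both, none past the test. All 9 striatal projection neuron genes on the list, of which none was called, also had fold changes above 0 at both rates, with medians of 0.28 and 0.24, and the part of those neurons in the Penk values was not tested. The 2 rates share the basal libraries.

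A difference of the insulin response between regions was tested as the interaction of region and infusion over all 52 libraries in edgeR, taking the libraries as independent. None of the 9 precursors passed, and 0% of 14985 genes did. At an unadjusted p under 0.05 the count was 3 of 9 (11.2% of all genes): Tac2 (adjusted p = 0.383), Penk (adjusted p = 0.425) and Pdyn (adjusted p = 0.435).

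**Figure D4:**
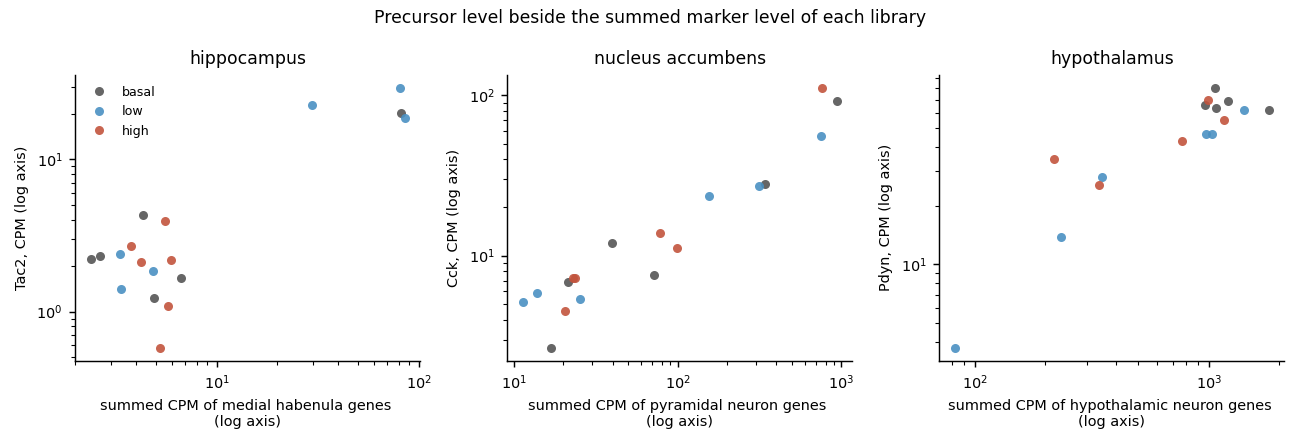
Precursor level against the summed level of a marker list in each library, both as CPM on log axes: Tac2 and medial habenula genes in the hippocampus, Cck and pyramidal neuron genes in the nucleus accumbens, and Pdyn and hypothalamic neuron genes in the hypothalamus. The 4 hippocampal libraries with 29.8 CPM or more of habenula genes are those with 18.8 CPM or more of Tac2, and points of the 3 infusions are mixed in the accumbens panel.

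The accumbens values of Cck and Vip followed the cortex-rich libraries. Cck was 92.4, 56.2 and 111.9 CPM in basal replicate 3, low replicate 4 and high replicate 5, and 2.68 to 28 in the other 15. Vip was 18.2, 24.3 and 24.6 CPM in these 3 and 1.3 to 10.7 in the others. Their summed level of pyramidal neuron genes, among them Slc17a7 and Neurod6, was 753 to 936.1 CPM, against 11.3 to 340.6 in the others. Gal and Tac2 were the reverse. Gal was at 0 to 0.38 CPM in the 3 libraries and 0.628 to 12.6 elsewhere, and Tac2 at 5.53 to 7.45 CPM against 7.62 to 41.7. Adcyap1 was at 12.8 to 16.6 CPM against 1.52 to 13.5, overlapping slightly. The cortex-rich libraries were 1 of each infusion group. Their hippocampal field genes summed to 257.5 to 267.2 CPM, against at most 173.9 in the other accumbens libraries. In the hippocampus the pyramidal neuron genes summed to 1136 to 2632 CPM, and whether these 3 libraries held cortex was not tested. Penk, Tac1 and Pdyn in them lay within the range of the other 15.

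How the members varied together was tested over the libraries of each region, after removing the mean of each infusion group. Of 79 pairs of members with a mean of at least 5 CPM, 19 passed a permutation test of Pearson's r with Benjamini-Hochberg adjustment over the 79: 5 of 28 in the hypothalamus, 1 of 15 in the hippocampus and 13 of 36 in the nucleus accumbens. The points of a region share dissection and depth differences. The accumbens pairs fell into 2 sets. Cck and Vip varied together (r = 0.92, rho = 0.88, adjusted permutation p = 0.00237 and 0.00316, n = 18 libraries) and both ran against Tac2, Nts and Gal, with r from -0.78 to -0.64. Tac2, Nts and Gal were positively correlated with each other (r = 0.71 to 0.84). The remaining called pairs joined the projection neuron precursors: Penk with Pdyn (r = 0.75, rho = 0.71, adjusted permutation p = 0.00461), Tac1 with Pdyn (r = 0.67, rho = 0.58, adjusted p = 0.0251) and Tac1 with Penk (r = 0.62, rho = 0.54, adjusted p = 0.0309). The adjusted p given for these pairs is that of Pearson's r. By Spearman's rho the accumbens pairs that passed were Cck with Vip, Tac2 with Gal, Nts with Gal, Tac2 with Cck and Penk with Pdyn. Tac1 with Pdyn (adjusted permutation p of rho = 0.0894), Tac1 with Penk (0.113) and the other called accumbens pairs did not pass by rho.

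The first set rested in part on the cortex-rich libraries. Without these 3, r between Cck and Vip was 0.76, but r between Cck and Nts went from -0.78 to -0.32, between Vip and Nts from -0.64 to 0.10, and between Tac2 and Nts from 0.71 to 0.26. Tac2 and Gal kept 0.64. The summed level of the hypothalamic neuron genes also varied across accumbens libraries, from 5.31 to 90.6 CPM. At the 2 highest sums, 90.6 in high replicate 4 and 82.0 in basal replicate 6, Tac2 was 36.3 and 20.0 CPM. At the lowest, in the cortex-rich low replicate 4, Tac2 was 6.07 CPM. The part of this difference in the pairs was not tested. The projection neuron pairs were as high without the cortex-rich libraries, at 0.76 for Penk and Pdyn and 0.70 for each of the other pairs. Leaving out the 2 libraries farthest from the median of the first gene gave 0.59, 0.49 and 0.50 for Penk with Pdyn, Tac1 with Pdyn and Tac1 with Penk. Within the middle and the highest range of the tag numbers that the labels give to libraries, the 3 values were 0.71 and 0.77, 0.50 and 0.64, and 0.33 and 0.61 (6 and 9 libraries). In the hypothalamus the same pairs were not called, with r of 0.11, 0.14 and 0.36.

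The hypothalamic pairs centred on Tac2. It was correlated with Gal (r = 0.81, rho = 0.78, adjusted permutation p = 0.00332 and 0.0139, n = 16 libraries), with Penk (r = 0.70, rho = 0.63) and with Nts (r = 0.61, rho = 0.65), and Penk with Nts (r = 0.78, rho = 0.60). Only the pair of Tac2 and Gal also passed by Spearman's rho. Basal replicates 2 and 5, which lean to GC-rich transcripts, held the highest Tac2 (32.8 and 44.6 CPM) and the highest Gal of the basal group. The part of that lean in the hypothalamic pairs was not tested. Pdyn and Gal had r = 0.76, which was 0.40 without the 5 libraries that lack a peptide gene, while Tac2 and Gal had 0.80 without them. Within the highest tag range (9 libraries) Tac2 and Gal had r = 0.88 and Pdyn and Gal 0.39; the middle range held 4 libraries, too few for a value. In the hippocampus the called pair was Tac1 and Tac2 (r = 0.60, rho = 0.65, adjusted permutation p = 0.012 and 0.0139, n = 18), with 0.61 over the 14 libraries that are not habenula-rich.

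**Figure D5:**
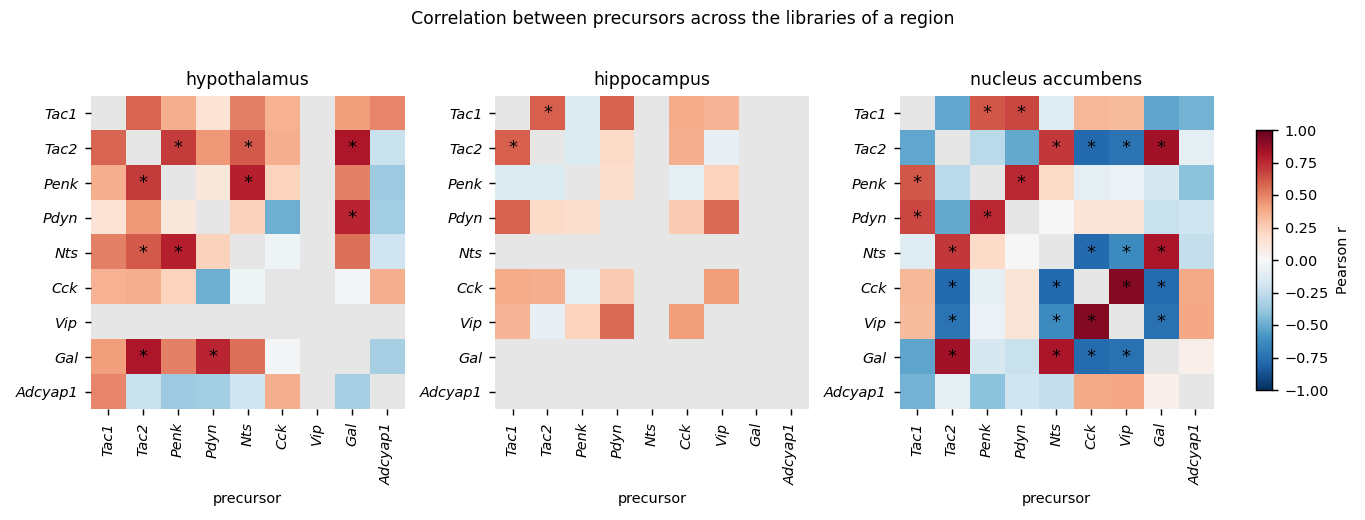
Pearson's r between precursors across the 16 or 18 libraries of a region, after removing infusion group means; stars mark adjusted permutation p under 0.05 and grey cells are pairs with a member below 5 CPM. The accumbens shows Cck and Vip together and against Tac2, Nts and Gal, and Penk, Pdyn and Tac1 together.

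For each precursor, the 3 genes with the most similar profile were taken over the libraries of the region where it was highest, as a description with no test, since they are the highest of over 11000 correlations. For Penk in the nucleus accumbens these were Elovl1, Rgs9 and Lrrc10b (r = 0.81, 0.80 and 0.79, n = 18), of which Rgs9 encodes a striatal regulator of G protein signalling. For Pdyn they were Htr1d, Btbd19 and Rxrg (0.87, 0.87 and 0.86), for Tac1 Arhgap10, Cacna2d3 and Mark1 (0.91, 0.86 and 0.86), and for Nts Rtl9, Serpinb1b and Etnppl (0.88, 0.88 and 0.88). For hippocampal Cck they were Cnih2, Lin7b and Park7 (all 0.96), and for hippocampal Vip Btbd10, Tbr1 and Lamp5 (0.88, 0.86 and 0.85). For hypothalamic Adcyap1 they included Foxa1 and Slc18a2 (0.93 and 0.89, n = 16). Foxa1 encodes a transcription factor of ventral midbrain neurons and Slc18a2 the vesicular monoamine transporter. For Tac2 they were Oscp1, Nub1 and Pdia6 (0.93, 0.93 and 0.92), and for Gal Fndc9, Wdr1 and Tmed3 (0.93, 0.89 and 0.89). Hippocampal Cck was highest in replicate 1 of the basal and of the high group, at 360.5 and 330.8 CPM. Both libraries lean to GC-rich transcripts, and the part of that lean in these correlations was not tested.

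Of 17 receptor genes listed for these peptides, 16 matched a row and 13 had enough counts to be tested between regions under saline. Against the hippocampus, 8 were higher (22.9% of all genes) and 3 lower (21.1%) in the hypothalamus, and 8 were higher (14.2%) and 1 lower (13.7%) in the nucleus accumbens, with medians over the list of 1.44 and 1.21 log2 units beside 0.05 and 0.00 over all genes. The same 8 were higher in both: Cckar and Cckbr (cholecystokinin), Galr1 (galanin), Tacr1 and Tacr3 (substance P and neurokinin B), Oprk1 (dynorphins), Ntsr1 (neurotensin) and Adcyap1r1 (PACAP). Oprk1 averaged 53.9 ± 11.3 CPM in the accumbens, 38.1 ± 9.04 in the hypothalamus and 1.42 ± 0.782 in the hippocampus (SD, n = 18, 16 and 18), the regional order of Pdyn, though Oprk1 was not called between accumbens and hypothalamus. Tacr1 and Tacr3 were lowest in the hippocampus, as Tac1 and Tac2 were, at 2.81 ± 2.62 and 0.346 ± 0.4 CPM. Cckar and Galr1 were higher in the hypothalamus than in the hippocampus by 8.27 and 5.05 fitted log2 units, from hippocampal levels near 0. Cck had the reverse order to its receptors Cckar and Cckbr, with its highest mean, 182.2 CPM, in the hippocampus.

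Of the receptors with the opposite order, Vipr1, a receptor for the peptide of Vip, was lower in the hypothalamus than in the hippocampus (-4.32, SE 0.35, adjusted p = 4.37e-09), as Vip was. Sort1, a sorting receptor that also binds neurotensin, averaged 1328 ± 282.3 CPM in the hippocampus, where Nts was lowest, 574.4 ± 170.6 in the accumbens and 306.7 ± 62.4 in the hypothalamus. Oprd1, the delta receptor that binds enkephalins, was lower in the hypothalamus by 0.87 log2 units (-0.87, adjusted p = 0.0186). Between accumbens and hypothalamus 3 receptors were higher (13.9% of all genes), Vipr1 (3.85), Oprd1 (1.40) and Sort1 (1.10), and 3 were lower (15.1%), Cckar (-1.15), Ntsr1 (-0.96) and Adcyap1r1 (-0.47). Without the GC-leaning libraries Oprd1 was no longer called in either comparison (adjusted p = 0.573 against the hippocampus and 0.0528 in the accumbens), and neither was Cckbr between hypothalamus and hippocampus (1.29, adjusted p = 0.0537). Cckbr there was 0.30 (adjusted p = 0.335) over the mean of the 3 infusions. Between accumbens and hippocampus the Cckbr call was lost over that mean (0.45, adjusted p = 0.155) and with all 52 libraries in 1 fit. The Oprd1 call against the hippocampus was also lost without basal hypothalamic replicate 2. The Cckar and Adcyap1r1 calls between accumbens and hypothalamus were lost without basal hypothalamic replicate 1, that of Cckar also without the GC-leaning libraries (adjusted p = 0.198) and with all 52 libraries in 1 fit, and the Adcyap1r1 call between accumbens and hippocampus without basal accumbens replicate 1, 4 or 6.

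With insulin, 1 of the 13 receptor genes tested in the hypothalamus was called, at the low rate, where 5.38% of all genes were called, and 0 of the 8 tested in the hippocampus and 0 of the 13 in the nucleus accumbens were called, as were 0% of all genes there. It was Oprm1, the mu opioid receptor, which rose at the low rate in the hypothalamus by 1.91 log2 units (SE 0.46, adjusted p = 0.0309 in edgeR's quasi-likelihood test). It was low throughout, at 0.151 to 1.46 CPM in the basal libraries, 0.883 to 5.72 in the low libraries and 1.33 to 3.33 in the high libraries, and the basal and low groups overlapped. At the high rate the difference was 1.39 (adjusted p = 0.144). The Oprm1 call was lost in 12 of 27 alternatives, over which the difference ran from 1.59 to 3.14 and the adjusted p from 0.00492 to 0.436. These include the fits without hypothalamic basal replicate 1 (adjusted p = 0.09) or 2 (0.0898), without low replicate 2 (0.0751), 3 (0.0612) or 6 (0.0662), without the GC-leaning libraries (0.436), and without the libraries lacking a hypothalamic peptide gene (0.116).

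Of 6 genes that process precursors, Pcsk1, Pcsk2, Cpe, Pam, Scg5 and Pcsk1n, none was called with insulin in any region. Under saline 4 of the 6 were higher in the hypothalamus than in the hippocampus, where 22.9% of all genes were: the prohormone convertase Pcsk1 (2.79, SE 0.22, adjusted p = 2.98e-09), its inhibitor Pcsk1n (1.71), the amidating enzyme Pam (1.00) and the convertase chaperone Scg5 (0.89). The carboxypeptidase Cpe was lower (-0.48, adjusted p = 0.00864). The same 4 were lower in the accumbens than in the hypothalamus (15.1% of all genes), by -1.32, -1.51, -0.71 and -0.69 log2 units. Against the hippocampus (14.2% of all genes higher and 13.7% lower) the accumbens had higher Pcsk1 (1.47, adjusted p = 1.5e-05) and lower Cpe (-0.53, adjusted p = 0.00399). Without the GC-leaning libraries Pcsk1n was no longer called, at 0.37 against the hippocampus (adjusted p = 0.37) and -0.03 in the accumbens against the hypothalamus (adjusted p = 0.97), and nor was Scg5 in the accumbens (adjusted p = 0.103). The part of the lean in these values was not tested.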

How the data were processed

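RNA of 3 brain regions was sequenced as paired 50-base reads on a HiSeq 2500 after a directional library kit, per the labels' protocols. The authors deposited raw counts per gene, made with STAR and featureCounts on GRCm38.p4 per the submitters' processing notes; whether counting used strand is not given in the sources used here. No count was altered, and no pair of libraries in a group agreed within sampling noise. Identifiers were matched to symbols with GENCODE M21 (45143 of 46071 rows). CPM used TMM library sizes over all 52 libraries (totals 2453412 to 8279612). Tests used edgeR 4.0.16 in R 4.3.3 (filterByExpr, robust quasi-likelihood, Benjamini-Hochberg over all genes tested, threshold 0.05). These steps were tested on simulated data, in which 100 genes were changed by 2-fold and another 100 by 4-fold. For hypothalamus low minus basal 79% of the genes changed by 2-fold were recovered among 14139 genes (16 unchanged genes were called). The share was 66% for hippocampus low minus basal among 13515 (10) and 81% for nucleus accumbens low minus basal among 13769 (7). The simulated counts were drawn independently around a single mean per gene, without the GC lean or marker differences of the measured libraries. These shares therefore need not hold for the measured data. Recovery of the 9 precursors themselves was not tested. In the measured hypothalamus low minus basal their SEs ran from 0.24 (Penk) to 0.86 (Vip) log2 units. Pdyn (-1.0, SE 0.43) and Gal (-1.13, SE 0.39) were not called there. Alternatives were DESeq2 1.42.0, limma-voom (limma 3.58.1), DESeq2 size factors, no filter, other sets of libraries, range and run of the library tag numbers as batch terms, and GC lean; those without habenula-rich, cortex-rich or GC-leaning libraries were chosen after the data were seen. For the GC lean, the mean log2 CPM over all libraries of the region was subtracted from each library's log2 CPM, gene by gene. A library was called GC-leaning when these differences had a Spearman correlation above 0.4 with transcript GC, so the lean is relative to its region. Pairs used 100000 permutations. The members, lists and rules were chosen with earlier results of these data known. The text names all 9 members, each listed receptor or processing gene called in a comparison, and for each member the 3 genes with the highest correlation in the region of its highest level, predicted genes left out; a gene among those for Adcyap1 is not reported here.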

Additional observations from a re-analysis of the deposited data

Results flagged for a closer look

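Of 81 groups of 5 or 6 libraries (9 precursors in 9 groups), 14 had a library whose gap to its nearest neighbour was a larger share of the group's range than Dixon's 95% critical value. For normally distributed values chance gives about 1 in 20 groups. The values here were CPM without a log, and the 9 precursors share libraries, so the 14 cannot be weighed against that share. In the nucleus accumbens 5 of them were in the cortex-rich libraries: Cck at 92.4 CPM and Vip at 18.2 in basal replicate 3, Cck at 111.9 and Vip at 24.6 in high replicate 5, and Nts, on the low side, at 36.1 in low replicate 4. In the hippocampus 3 were in basal replicate 6, which is habenula-rich: Tac2 at 20.2 CPM, Adcyap1 at 6.72 and Gal at 0.396, which is 2 counts; the other 5 libraries held no Gal count, so any count there would have passed, and this value is not comparable with the chance share. The fourth hippocampal value was Pdyn at 15 CPM in low replicate 5, also habenula-rich. In the hypothalamus Vip was at 17.7 CPM and Penk at 210.7 in high replicate 3, Vip at 9.01 in low replicate 5, Penk at 214.6 in basal replicate 5 and Tac1 at 147.5 in low replicate 1. High replicate 3 and low replicate 1 lack a hypothalamic peptide gene, and basal replicate 5 leans to GC-rich transcripts.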

How the results depend on the processing

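No analysis paired by animal or replicate number was made, because the labels give neither and the numbers used here follow accession order. The tag numbers in the titles form runs, and with the run as a batch term 0 precursors were called in the 9 comparisons of infusions. Among the 9 comparisons of infusions and the interaction, the count of called precursors stayed at 0 under every alternative run except in the hypothalamus at the low rate. There it was 1 with all 52 libraries in 1 fit (Pdyn) and 1 with DESeq2 (Gal), and 0 to 2 when leaving out each library, with 2 without basal replicate 4 (Tac2 and Gal). Between nucleus accumbens and hypothalamus the count went from 6 to 3 without the GC-leaning libraries. The cause was not tested, though that fit has 3 fewer basal hypothalamic libraries. For single precursors, 2039 of 2203 alternative values of the infusion comparisons and 663 of 702 of the region comparisons kept their direction and side of the threshold, and no called value changed sign. Sign changes among values not called numbered 160 in 46 results with insulin and 10 between regions (Tac2 and Cck, accumbens minus hypothalamus). Over the alternatives, log2 fold changes in the hypothalamus at the low rate ran from -1.44 to -0.39 for Pdyn and from -1.31 to -0.57 for Gal. Of 989 alternative values of the 38 calls of listed receptor and processing genes, 960 kept the call, 29 lost it and 0 changed sign. The correlated pairs numbered 19, also 19 with DESeq2 size factors and with a prior count of 0.5, and 16 without removing group means. At these depths Gal in the hippocampus rests on 12 counts in 18 libraries, where 3 counts are 0.507 to 0.99 CPM.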
